A study of Homo sapiens and Mus musculus with 6 samples.

Results

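The interleukin and interleukin receptor genes were examined in promoter Capture Hi-C (CHi-C) contact lists from a human B-lymphoblastoid line and from mouse embryonic stem cells. CHi-C crosslinks and ligates DNA fragments that lie close together in the nucleus, and then enriches the ligation products with RNA probes (baits) against HindIII fragments that carry gene promoters. A call was counted for an interleukin gene when the name of its bait held a gene symbol that began with IL, in any case, followed by a digit. By this rule 470 of 92929 calls in GM12878 cells belonged to 74 of 20457 genes with a call, on 74 of 15389 bait fragments. In mouse embryonic stem cells (mESCs) 310 of 101841 calls belonged to 49 of 16133 genes, on 49 of 16265 bait fragments.

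GM12878 is an established human lymphoblastoid line of B cell origin, and its list combined 3 biological replicates. The mESCs were J1 cells of strain 129S4/SvJae, grown on irradiated embryonic fibroblasts that were removed by repeated passaging at harvest, and their list combined 2 biological replicates. Conventional Hi-C, without capture, was available for mESCs from 1 library. The labels give no stimulation of either cell type, and all cells were fixed in formaldehyde. The contacts of a cell type had been called on its replicates together, so each value below is 1 number per cell type with no replicate spread, and no test between cell types was possible. Human B cells were compared with mouse stem cells, so species, cell type and replicate number cannot be told apart. The files held contacts and no expression, and the labelled cell types could therefore not be checked against marker genes.

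Interleukins are secreted proteins through which leukocytes and other cells signal to each other. Most receptors of the IL-2, IL-6, IL-10 and IL-12 type pass the signal on through Janus kinases and STAT transcription factors, whereas receptors of the IL-1 and IL-17 type act through adaptor proteins that activate NF-kB and AP-1. Many interleukin genes arose by local duplication and lie side by side, so that neighbouring genes can be close to the same distal elements. B cells respond to several interleukins and make some of them, among them IL-6 and IL-10, while embryonic stem cells are best known for their response to LIF, a cytokine of the IL-6 type.

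The ends of the fragments in the strongest call of 3 genes are shown first, since ligation in the assay joined fragments at these sites. Each sequence runs 60 bases along the plus strand, and the capitals mark the HindIII site. The first pair lies at chr7:22758471-22758530 and chr7:22601325-22601384 (hg19), the second at chr1:206971831-206971890 and chr1:206908737-206908796 (hg19), and the last at chr3:89715950-89716009 and chr3:89315304-89315363 (mm9).
IL6 bait: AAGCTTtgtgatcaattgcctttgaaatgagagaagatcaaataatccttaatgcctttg
IL6 partner, in STEAP1B: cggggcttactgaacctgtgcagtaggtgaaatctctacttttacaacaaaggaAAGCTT
IL19 bait: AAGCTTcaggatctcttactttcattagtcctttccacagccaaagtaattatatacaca
IL19 partner, at MAPKAPK2: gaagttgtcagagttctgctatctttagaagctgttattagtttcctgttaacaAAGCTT
Il6ra bait: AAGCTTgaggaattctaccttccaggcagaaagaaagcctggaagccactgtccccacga
Il6ra partner, outside genes: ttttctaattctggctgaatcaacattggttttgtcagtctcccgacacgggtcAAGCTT
All 74 baits and 389 contacted fragments of the GM12878 interleukin calls, and all 49 baits and 305 contacted fragments of the mESC calls, were bounded by this site on both sides in the genome.

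The promoters of 3 human ligand genes with many calls are shown because their baits carried the whole promoter and a match to a motif of immune transcription factors. Each runs 250 bases up to the base before the transcription start, on the strand of the gene, with the matches in capitals. The starts are those of RefSeq, found letter for letter in hg19. IL12A lies at chr3:159706372-159706621, IL23A at chr12:56732418-56732667, and IL1A at chr2:113542071-113542320 on the minus strand.
IL12A: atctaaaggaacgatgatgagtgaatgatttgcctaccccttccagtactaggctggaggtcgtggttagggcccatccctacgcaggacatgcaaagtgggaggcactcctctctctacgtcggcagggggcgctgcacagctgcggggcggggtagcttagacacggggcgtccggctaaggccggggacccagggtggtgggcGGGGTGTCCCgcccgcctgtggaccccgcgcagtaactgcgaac
IL23A: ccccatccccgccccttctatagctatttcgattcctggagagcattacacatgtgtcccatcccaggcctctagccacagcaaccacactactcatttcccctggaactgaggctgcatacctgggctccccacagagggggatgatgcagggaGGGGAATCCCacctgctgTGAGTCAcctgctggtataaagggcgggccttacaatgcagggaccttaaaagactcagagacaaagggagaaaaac
IL1A: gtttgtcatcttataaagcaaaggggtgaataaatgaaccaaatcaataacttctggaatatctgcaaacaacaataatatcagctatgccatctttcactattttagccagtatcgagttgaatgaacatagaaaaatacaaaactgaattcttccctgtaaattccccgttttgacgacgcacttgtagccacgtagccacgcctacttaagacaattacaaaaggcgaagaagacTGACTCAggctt
In IL12A the NF-kB match (GGGGTGTCCC) lay 44 to 35 bases before the start. In IL23A the NF-kB match (GGGGAATCCC) lay 95 to 86 bases and the AP-1 match (TGAGTCA) 77 to 71 bases before it. The AP-1 match of IL1A (TGACTCA) lay 12 to 6 bases before the start.

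Over all interleukin genes that the human list named, 59 of 77 had a RefSeq promoter of 300 bases (250 before and 50 from the start on). Of these, 58 were found letter for letter in hg19 and 42 lay whole within a bait of their gene. The RefSeq promoters of IL19, IL20, IL20RB, IL21R, IL1RN, IL1R1 and IL1R2 were among those outside the bait. Calls of these genes therefore come from another fragment than this promoter. Of the 74 human interleukin baits, 71 held an annotated start of an interleukin gene. On both strands, the STAT site TTCNNNGAA matched 8 of the 59 promoters (13.6%, 95% Wilson interval 7.03 to 24.5%), against 7.66% of 35116 RefSeq promoters. The AP-1 site TGANTCA matched 11 (18.6%, 10.7 to 30.4%), against 7.71%, and the NF-kB site matched 10 (16.9%, 9.48 to 28.5%), against 5.91%. These intervals cover counting error only, neighbouring genes are not independent, and a match of letters does not show that a factor binds. The promoters of IL6, IL12A, IL2RA and IL27RA were among those with an NF-kB match, and that of IL15RA among those with a STAT match.

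In both cell types most interleukin genes that a list named at all had calls, and their number per gene varied widely. A gene was taken as named when its symbol stood at either end of a call. Captured genes with no call at either end are therefore missing from these counts, so the shares below were bound to be high. In GM12878 74 of 77 named genes had a call of their own (96.1%), beside 93.0% of all named genes, and in mESCs 49 of 52 had one (94.2%), beside 94.8%. IL11RA, IL17C and IL36A were without a call in GM12878, and Il2, Il31 and Il17rd in mESCs. The median number of calls per named gene was 4 in GM12878 and 2.5 in mESCs, beside 3 over all named genes in each list. The lists differed in how baits were named: 5549 of 15389 human baits but only 6 of 16265 mouse baits held more than 1 gene symbol, and 27 of the 74 human interleukin baits also named another gene. Calls from such a bait cannot be assigned to 1 gene, and a mouse interleukin gene whose fragment was named for a neighbour was missed.

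Every interleukin call joined fragments of 1 chromosome. There were 0 calls between chromosomes among 470 in GM12878, which allows a share of up to 0.638%, and 0 among 310 in mESCs, which allows up to 0.968%. Over all calls these shares were 0.31% and 0.569%, within the limits, so the lack of such calls did not set the interleukin genes apart. The median distance between fragment midpoints was 118 kb in GM12878 (quartiles 47.2 and 209 kb) and 128 kb in mESCs (quartiles 38.7 and 240 kb), against medians of 174 and 139 kb over all calls on 1 chromosome. Calls shorter than 100 kb made up 43% of the GM12878 interleukin calls, against 29.8% of all calls. In mESCs the corresponding shares were 42.6% and 39%. The longest interleukin call spanned 1338 kb, from Il15ra, a receptor for IL-15, to the promoter of Sfmbt2 in mESCs, with 5 reads and a score of 6.57. In GM12878 no interleukin call was longer than 961.1 kb.

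As listed, a smaller share of interleukin calls than of all calls ended on another baited promoter, and a smaller share had a high score, in both lists. Reads are the weighted mean over replicates as deposited, and the score is that of CHiCAGO, which grows as a read count departs from the background for its distance and fragments, with calls listed from a score of 5. In GM12878 118 of 470 calls reached another baited fragment (25.1%, 21.4 to 29.2%), beside 29.4% of all calls. In mESCs 81 of 310 did (26.1%, 21.6 to 31.3%), beside 36.3%. Il27ra and Il6ra together gave 109 of these 310 calls, and had 8 of 60 and 3 of 49 on baited fragments. The mESC share therefore leans on 2 baits, and the share without them was not computed. Some pairs of baits were listed from both ends, which counts them more than once in these shares. With each pair counted once, 23.6% of interleukin calls in GM12878 and 21.6% in mESCs reached a baited fragment. The share over all calls was not computed in this way, so the size of the difference from all calls stays uncertain. A score of at least 10 was held by 48 calls in GM12878 (10.2%, 7.79 to 13.3%), beside 16.3% of all calls, and by 27 in mESCs (8.71%, 6.05 to 12.4%), beside 16.9%. The intervals treat calls as independent although calls of 1 bait are not.

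**Figure D1:**
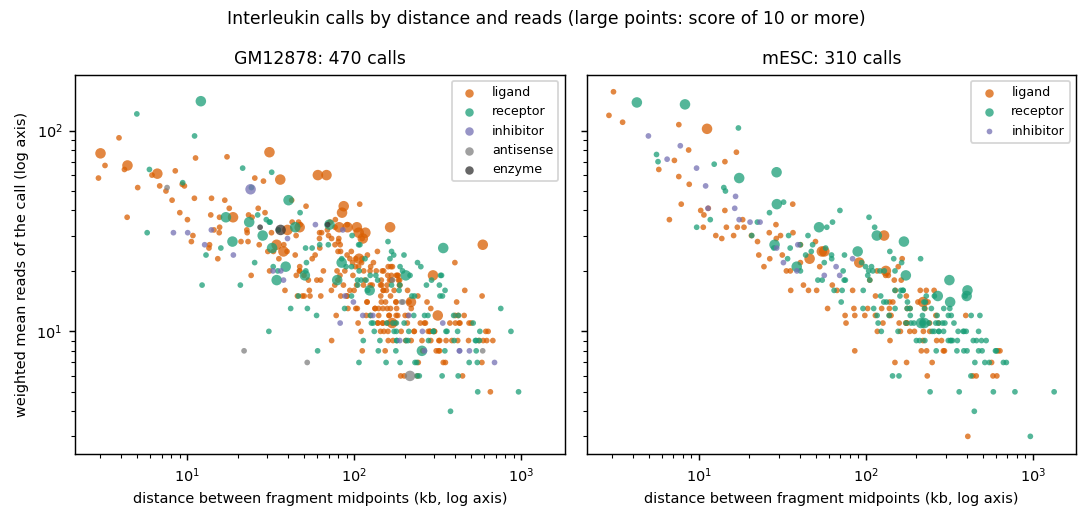
Each point is 1 call from an interleukin bait, with the distance between fragment midpoints in kb and the weighted mean reads on logarithmic axes, coloured by the role of the bait gene, for GM12878 (470 calls) and mESCs (310 calls). Reads fall with distance in both cell types, and calls with a score of at least 10 (large points) occur at short and long distances.

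Among the ligand genes, 35 of 37 named genes in GM12878 had 287 calls and 26 of 28 in mESCs had 127. IL19, a cytokine of the IL-10 family, had the most calls of any interleukin gene in GM12878, 33, with 15 to 78 reads. Among ligand genes it was followed by IL1B (26 calls), which encodes the inflammatory cytokine IL-1 beta, and by IL12A and IL23A with 23 each. IL12A encodes the p35 subunit of IL-12 and IL23A the p19 subunit of IL-23, cytokines that share the p40 subunit made from IL12B. IL26 had 19 calls, and IL1A, IL37 and the antagonist gene IL1RN had 14 each. The IL23A bait was also named for PAN2, so its calls belong to both genes.

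In mESCs the ligand genes with the most calls were Il34 with 16, Il11 with 12, Il17b with 11 and Il25 with 10. IL-34 is a ligand of the CSF-1 receptor, and IL-11 is a cytokine of the IL-6 type. Il5, which encodes the eosinophil growth factor, had 9 calls, and Il23a and Il27 had 8 each. Of the genes that led in GM12878, Il19 had 5 calls, Il10 1 and Il12a 1 in mESCs. IL1A, IL1B, IL26, IL37 and IL1RN were not named in the mouse list and could not be compared.

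The strongest interleukin call of GM12878 by score joined IL6, the gene of the pleiotropic cytokine that drives plasma cell growth, to an intron of STEAP1B at chr7:22598476-22601379 (hg19). This call had 33 reads and a score of 23.37 over 164 kb. The adjoining fragment at chr7:22601380-22609110 had 19 reads and a score of 9.68, and the one on the other side 18 reads and a score of 9.16. In all, 5 of the 6 IL6 calls fell between chr7:22587974 and chr7:22620661, a run of fragments 145 to 173 kb upstream of the bait, and the other lay 354 kb downstream, outside genes, with 9 reads. No fragment of the run carried a bait. In mESCs all 5 Il6 calls also lay upstream of the gene, at 14.3 to 240 kb, and the highest score among them was 9.71, in an intron of Dnajb6 with 11 reads.

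IL12A contacts lay mainly upstream, in 14 of 23 calls within 1 run of fragments at chr3:159582146-159649311, 62 to 124 kb from the bait. This run overlapped SCHIP1 and the antisense gene IL12A-AS1. Its calls had 20 to 33 reads, and the highest score, 14.66, was at chr3:159603080-159604301 with 33 reads. A second run of 4 calls lay downstream in IFT80 and SMC4, 402 to 429 kb away, with 11 to 14 reads. In mESCs the only Il12a call ended within Il12a itself, 5.74 kb from the bait, with 64 reads and a score of 6.16.

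IL26 contacts in GM12878 all lay on 1 side, with 19 of 19 calls upstream of the gene. Of these, 9 formed a run at chr12:68666520-68750154 over MDM1, 47.4 to 125 kb away, with 21 to 43 reads and scores up to 14.82. The rest reached RAP1B, NUP107, MDM2 and CPM, 400 to 620 kb away, with 9 to 22 reads. MDM2, which encodes the ubiquitin ligase that limits p53, was reached with 15 reads and a score of 6.39 on its bait fragment, which the neighbouring IL22 bait also reached with 9 reads and a score of 6.67.

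Among receptor genes, 27 of 28 named genes in GM12878 had 153 calls and 20 of 20 in mESCs had 164. In mESCs 109 of these came from Il27ra and Il6ra together, 35.2% of all 310 interleukin calls. In GM12878 IL2RA led with 29 calls and IL21R followed with 23. IL-2 receptor alpha (CD25) raises the affinity of the receptor for IL-2, and the IL-21 receptor carries a signal for plasma cell differentiation in B cells. The beta chain gene IL2RB had 10 calls from 2 baits, IL15RA 9 and IL2RG, the gene of the common gamma chain, 9.

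IL2RA was baited on 2 fragments, and the strongest of its calls joined them. The fragments chr10:6048811-6068154 and chr10:6099002-6106386 were linked by 33 reads with a score of 17.38 over 44.2 kb. From the fragment at chr10:6099002-6106386, which holds the transcription start, an intron of IL2RA at chr10:6085904-6095413 was reached with 140 reads and a score of 15.34 over 12 kb. The IL15RA bait reached the same intronic fragment with 34 reads and a score of 12.68 over 70.9 kb. A distant run of 6 fragments at chr10:6424294-6457513, 323 to 349 kb away, had 15 to 26 reads and scores up to 14.15.

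IL21R contacts fell into runs on both sides of its bait at chr16:27412699-27415044. This bait does not hold the promoter that RefSeq gives the gene, which lies at chr16:27438342-27438641. The 6 nearest upstream fragments, at chr16:27379483-27412433 and outside genes, had 24 to 35 reads and scores of 5.2 to 16.34, and 6 fragments within IL21R and IL21R-AS1 had 13 to 26 reads. A further 7 at chr16:27237496-27292786 overlapped NSMCE1 and its divergent transcript, 123 to 170 kb away, with 9 to 19 reads. The promoter of KDM8, a gene of the JmjC family, was reached over 203 kb with 19 reads and a score of 12.56. In mESCs the only Il21r call, with 10 reads and a score of 5.33 over 156 kb, ended in an intron of Jmjd5. JMJD5 is listed by RefSeq as an older symbol of KDM8, so the call of each species ended at the same gene, a match seen after the values were known.

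In mESCs Il27ra, the receptor for IL-27, had 60 calls, and its bait ranked 41 among 16265 mouse baits by number of calls. Its calls had 7 to 135 reads at 8.24 to 692 kb, and 38 lay upstream of the gene. Of these, 13 formed a run at chr8:86668808-86744216 (mm9), 102 to 177 kb away, which overlapped Nanos3, Cc2d1a, Zswim4 and the miRNA genes Mir23a, Mir27a and Mir24-2. The highest score of all mESC interleukin calls, 18.46 with 28 reads, was at chr8:86733459-86737222 in this run, on an exon of Zswim4. The human IL27RA bait had 1 call, with 7 reads and a score of 5.11, to an intron of BRME1 at 155 kb. This human bait was 35.4 kb long and the mouse bait 3.43 kb. Over the interleukin baits the median length was 6.88 kb in GM12878 and 6.36 kb in mESCs. The effect of bait length on numbers of calls was not tested.

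Il6ra, the ligand-binding chain of the IL-6 receptor, had 49 calls in mESCs, of which 40 lay downstream of the gene. The largest run held 11 calls at chr3:89530331-89623031 (mm9), 96.2 to 186 kb away, with 11 to 25 reads. It overlapped Adar, Chrnb2, Ube2q1 and 4632404H12Rik. Further runs of 7, 6 and 4 calls lay on or next to the potassium channel gene Kcnn3, at 218 to 405 kb. The highest score, 15.4 with 16 reads, was at chr3:89310976-89315358 (mm9), 405 kb away. The human gene carries the symbol IL6R and was not matched by name, and it had 1 call, with 12 reads and a score of 5.74, to an intron of TPM3 at 227 kb.

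**Figure D2:**
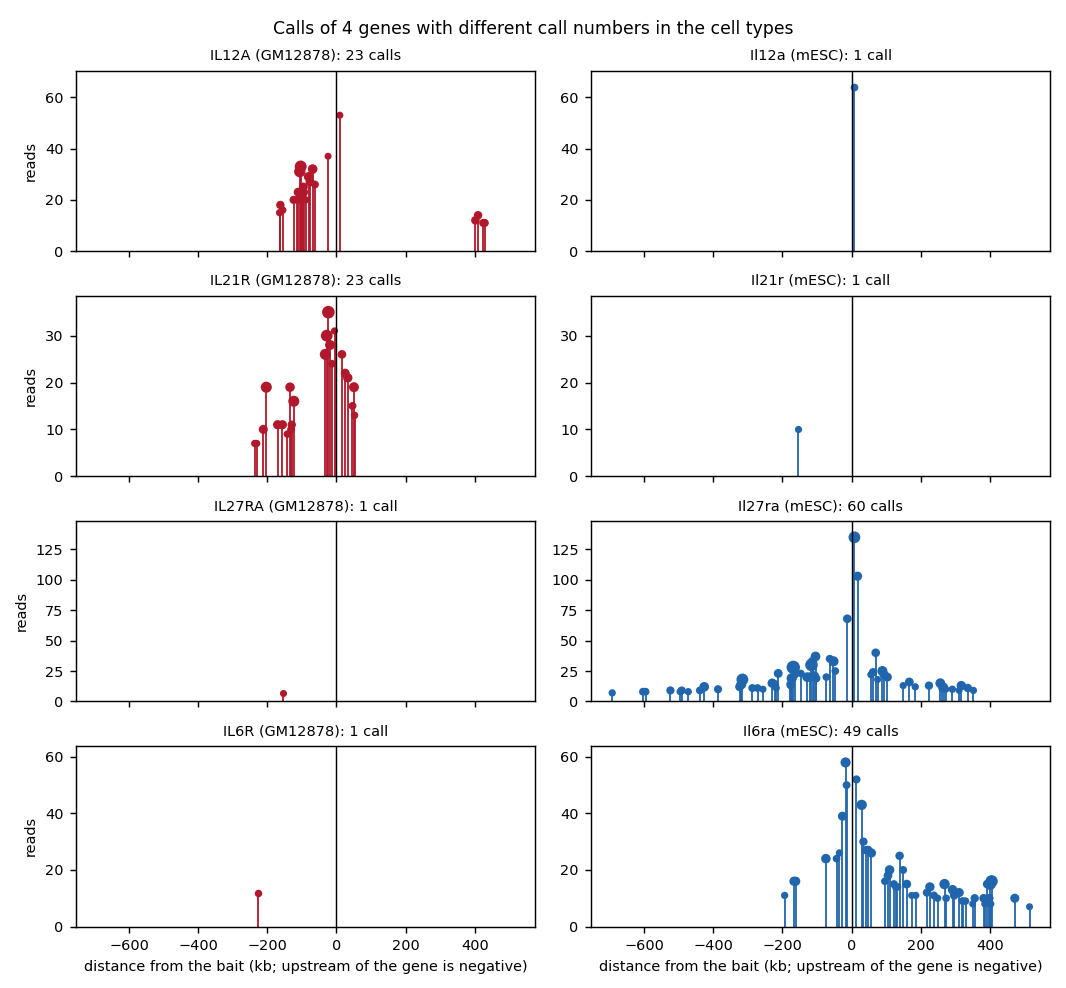
Each vertical line is 1 call, placed at its distance from the bait in kb with the upstream side of the gene negative, and its height is the weighted mean reads, with larger points for higher scores. IL12A and IL21R have 23 calls each in GM12878 and 1 each in mESCs, whereas Il27ra and Il6ra have 60 and 49 calls in mESCs against 1 each for IL27RA and IL6R in GM12878.

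Genes of inhibitors and decoys, with 34 calls over 7 genes in GM12878 and 19 calls over 3 of 4 named genes in mESCs, were led by different members. IL1RN, the IL-1 receptor antagonist, had 14 calls and IL36RN, the IL-36 receptor antagonist, 8 in GM12878, the latter from a bait shared with IL36B. In mESCs Il18bp, the binding protein that neutralises IL-18, had 17 calls with 19 to 94 reads, all within 83.1 kb. Of these, 8 formed a run over Numa1. IL18BP in GM12878 had 4 calls at 85.2 to 427 kb, from a bait that also named RNF121. The name rule also took in 4 antisense genes with 8 calls and IL4I1, which encodes an amino acid oxidase and no interleukin, with 3 calls in GM12878.

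Calls that joined 2 interleukin baits numbered 9 in GM12878 and 3 in mESCs, and in none of them was the pair called from both ends. In GM12878 IL10 reached IL19 (56 reads, score 6.06, 28.5 kb) and IL2RA reached IL15RA (21 reads, score 10.01, 38.8 kb). IL22 reached IL26 with 41 reads and a score of 7.57, and IL17A reached IL17F with 31 reads and a score of 5.61. The shared IL36B and IL36RN bait reached IL36A, IL1F10 and IL1RN with 15, 27 and 15 reads. The longest such call linked IL1R1 with IL18RAP, receptor genes of the IL-1 type, over 348 kb with 8 reads and a score of 7.98. The remaining one joined the pair of IL2RA fragments described above. In mESCs Il4 reached Il5 (18 reads, score 7.43, 105 kb), Il1f5 reached Il1f10 (41 reads, score 8.65, 16.4 kb) and Il1rl2 reached Il1r2 (5 reads, score 5.83, 242 kb). All these pairs are neighbours in a gene cluster. None joined a ligand gene with the gene of its own receptor. As no interleukin call joined different chromosomes, this was fixed for genes on different chromosomes, such as IL6 and IL6R.

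By matched gene, the interleukin genes were shifted in both directions. Symbols that agreed in capitals paired 41 genes named in both lists, and 38 genes had a call in both, 51.4% of the 74 human and 77.6% of the 49 mouse genes with a call. A gene was taken as higher in a cell type when its number of calls plus 1 was at least 2 times that in the other. By this rule 15 of the 41 genes (36.6%) were higher in GM12878, beside 27.2% of 8690 matched genes, and 12 (29.3%) were higher in mESCs, beside 29.3%. The remaining 14 passed in neither direction, and the median ratio was 1.25, beside 1 over all matched genes. The share in mESCs equalled its background, and the share in GM12878 lay above its own, a difference that could not be tested without replicates. Among the 21 genes whose baits named no other gene, 10 were higher in GM12878 and 4 in mESCs. The shares over all matched genes on such baits were not computed, so these counts do not set the interleukin genes apart.

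The genes with the largest ratios in GM12878 were IL12A and IL21R (23 calls against 1), IL10 (13 against 1), IL19 (33 against 5), IL2RB (10 against 1) and IL15RA (9 against 2). The 10 IL2RB calls came from 2 baits, and the mouse call from 1. IL1F10 had 11 against 3, and IL17RD and IL31 had 2 calls against 0. IL-10 is a cytokine that restrains inflammation and is made by regulatory B cells among others. In mESCs the largest were Il27ra (60 against 1), Il5 (9 against 1), Il34 (16 against 3), Il11 (12 against 2), Il18bp (17 against 4) and Il17rc (13 against 3), followed by Il22ra1 (5 against 1) and Il12rb1 (7 against 2). Older symbols paired 4 further genes, IL6R with Il6ra (1 against 49), IL36RN with Il1f5 (8 against 1), IL36G with Il1f9 (9 against 2) and IL4R with Il4ra (7 against 3). Ratios with 0 or 1 call on a side rest on few calls.

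**Figure D3:**
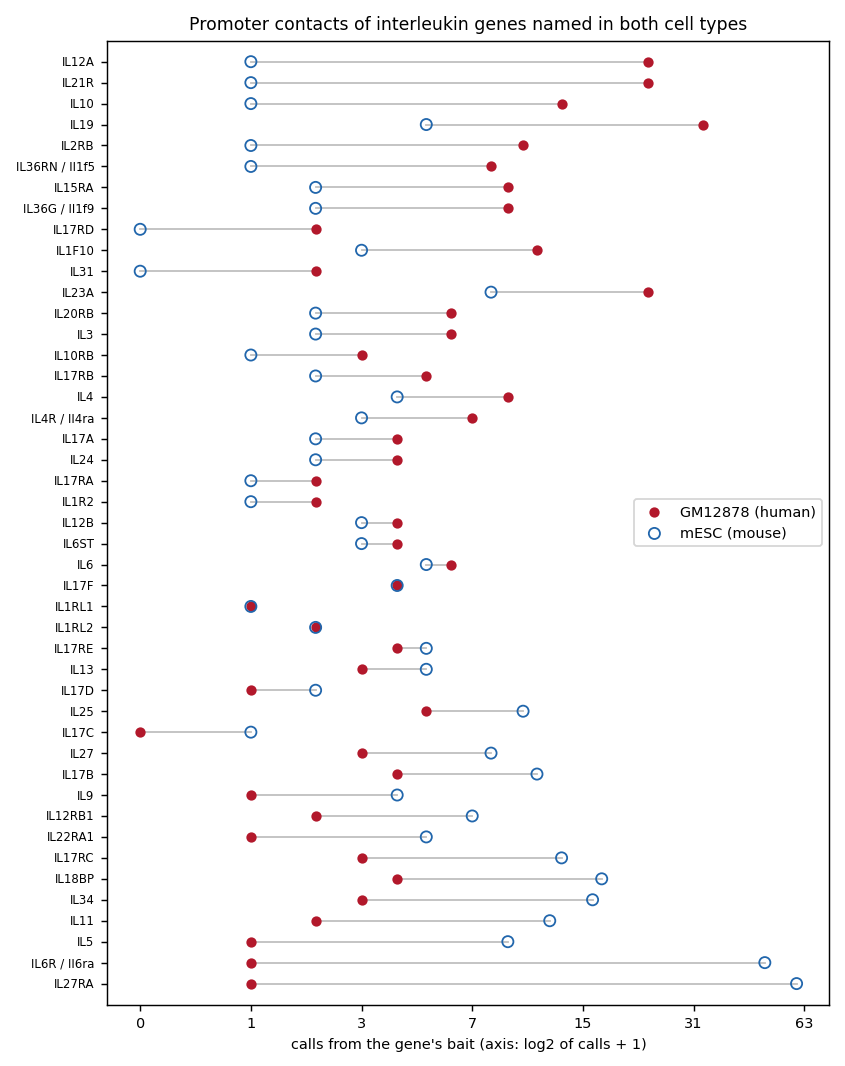
Calls from the bait of each interleukin gene named in both cell types are plotted on a log2 axis of calls plus 1, filled for GM12878 and open for mESCs, with 4 genes paired through older symbols. IL12A, IL21R and IL10 stand at 23, 23 and 13 calls against 1 at the top, and IL27RA and the IL6R pair at 1 against 60 and 49 at the bottom.

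In the IL10 cluster of GM12878, baits of neighbouring genes reached some of the same fragments. IL10, IL19, IL20 and IL24 had 60 calls to 40 fragments, and 13 of these fragments were reached by 2 or more of the 4 baits. Sharing varied among the interleukin clusters of GM12878. It held for 7 of 30 fragments at IL15RA and IL2RA, 2 of 17 at IL3, IL5, IL13 and IL4, and 0 of 10 at IL23R and IL12RB2. The share over all neighbouring baits of the genome was not computed, so this sharing does not set the cluster apart. A fragment that overlaps an exon of IL10, at chr1:206935048-206941627 (hg19), was reached by all 4, with 13 to 57 reads. The fragment at chr1:206903741-206908791, at the kinase gene MAPKAPK2, was reached by IL10 (25 reads, score 7.35), IL19 (60 reads, score 20.45) and IL20 (20 reads). The next fragment, outside genes, was reached by IL19 with 60 reads and a score of 18.75, by IL10 with 31 reads and a score of 9.25, and by IL24. On the other side, a fragment of FCMR, which encodes the Fc receptor of IgM, was reached from IL10, IL19 and IL20. The IL19 bait at chr1:206971832-206976797 does not hold the promoter that RefSeq gives the gene, which lies at chr1:206943868-206944167 beside the IL10 bait.

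The mouse cluster had 8 calls from Il10, Il19 and Il24 to 7 fragments, and IL20 was not named in the mouse list. The 1 fragment reached from 2 baits, by Il10 with 9 reads and by Il19 with 14, carried the promoter of Fcamr, which encodes an Fc receptor of IgA and IgM. In GM12878 IL10 reached a fragment that overlaps FCAMR with 10 reads and a score of 5.05. The human FCAMR bait reached IL19 (23 reads, score 8.3) and IL20 (19 reads, score 5.04). Il19 also reached an intron of Mapkapk2 over 138 kb, with 13 reads and a score of 7.78.

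**Figure D4:**
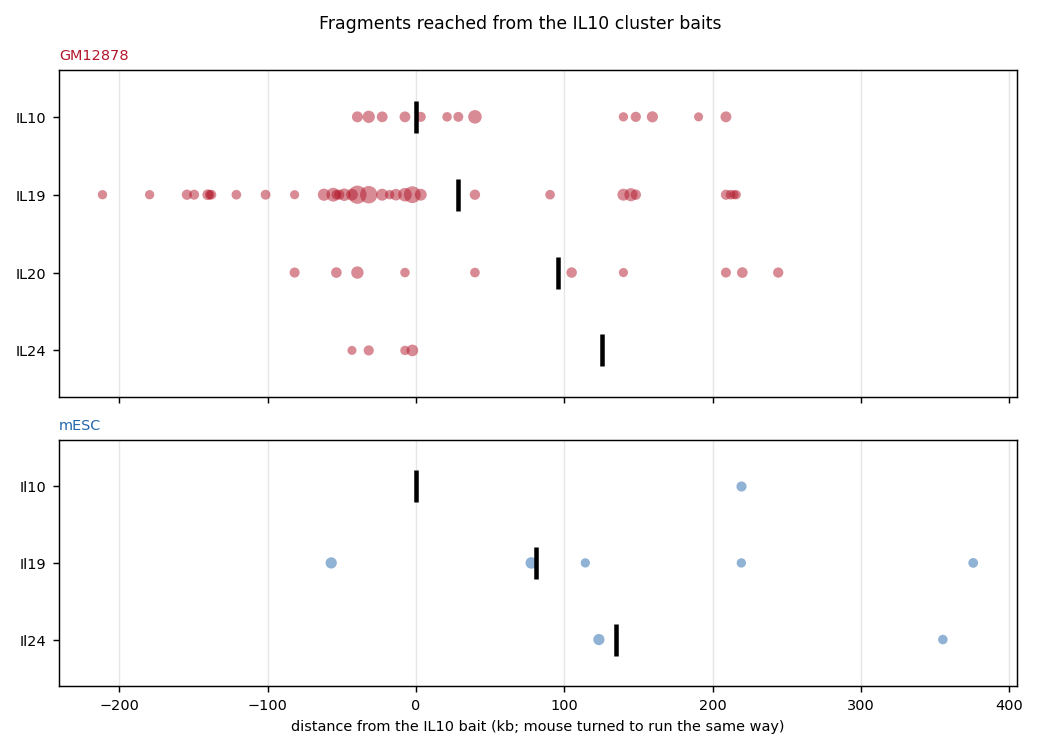
Fragments reached from the baits of the IL10 cluster are plotted by distance from the IL10 bait in kb, with 1 row per bait gene, black bars for the baits and circles whose area grows with the score. In GM12878 the circles of IL10, IL19, IL20 and IL24 share columns near the IL10 bait and to its left, where MAPKAPK2 lies, while the mESC rows hold 8 calls in all.

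The IL1 cluster of GM12878 held 96 calls from 7 baits, which named IL1A, IL1B, IL37, IL36G, IL36B, IL36RN, IL1F10 and IL1RN. These calls reached 62 fragments, 24 of them from 2 or more baits, again with no share over all neighbouring baits computed. IL-1 and IL-36 cytokines start inflammatory responses, whereas IL-37, IL-1RN and IL-36RN limit them. A fragment outside genes at chr2:113697456-113703079 (hg19) was reached by 4 baits, among them IL1B with 23 reads and a score of 13.64. The fragment chr2:113836262-113847767 was reached by 5 baits, with 10 to 51 reads and a score of 11.92 from IL1RN. The promoter of CKAP2L, next to IL1A, was reached from IL1A, IL1B, IL37 and IL36G with 14 to 41 reads. In mESCs Il1f9, Il1f5 and Il1f10 had 6 calls to 6 fragments, none of them shared, and the highest score was 10.03. IL1A, IL1B and IL1RN were not named in the mouse list, so fewer baits were compared there.

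**Figure D5:**
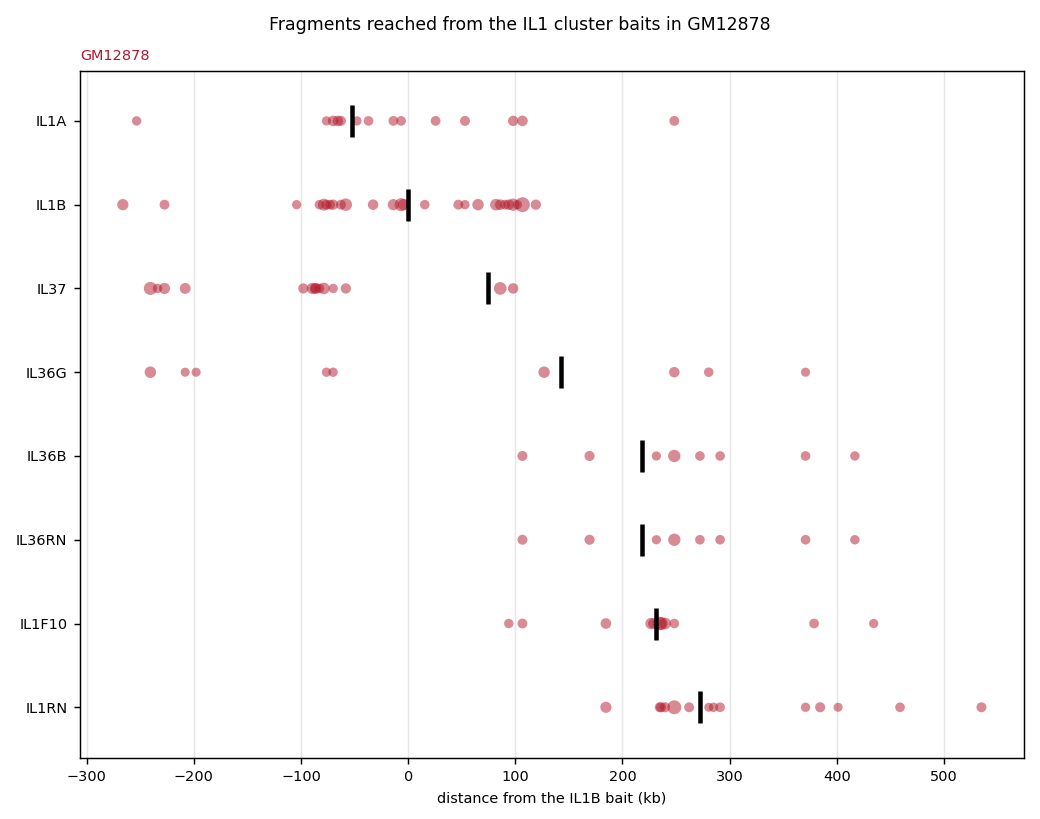
Fragments reached from 7 baits of the IL1 cluster in GM12878 are plotted by distance from the IL1B bait in kb, with 1 row per gene (IL36B and IL36RN share a bait), black bars for baits and circles whose area grows with the score. The IL1A, IL1B, IL37 and IL36G rows meet to the left of the IL1B bait, and the IL36 to IL1RN rows meet around 250 kb to its right.

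The cluster of IL3 and the type 2 cytokine genes, whose products direct responses to parasites and allergens, differed gene by gene. IL4, IL5 and IL13 together had 13 calls in GM12878 and 18 in mESCs. IL5 had 1 call in GM12878 against 9 in mESCs, whereas IL4 had 9 against 4, IL3 6 against 2 and IL13 3 against 5. In GM12878 IL4 and IL13 both reached the promoter of SHROOM1, at 157 and 179 kb with 17 and 13 reads, and IL4 reached that of SOWAHA with 17 reads and a score of 5.96. In mESCs Il4 and Il13 both reached the promoter fragment of Ankrd43, at 136 and 156 kb with 19 and 21 reads and scores of 8.42 and 7.65. RefSeq lists ANKRD43 as an older symbol of SOWAHA. Il5 reached Shroom1 over 256 kb with 16 reads and a score of 8.64. These neighbours were picked out after their values were seen.

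Contacts with the same target gene in both cell types were found for 11 of the 38 genes with calls in both lists (28.9%), beside 32.6% of 7880 such genes, over 16 pairs of a gene and its target. A target was a gene named by the contacted bait or with an annotated transcription start on the contacted fragment. The longest were IL12B with ADRA1B, 587 kb in GM12878 (27 reads, score 15.33) and 565 kb in mESCs (7 reads, score 5.12), and IL17RB with CACNA1D, 514 and 481 kb. IL23A reached TIMELESS, a gene of DNA replication and the circadian clock, with 29 reads in GM12878 and 17 in mESCs, and also GLS2 and MIP. IL25 shared AP1G2, SLC22A17 and ZFHX2, and IL18BP shared NUMA1 and LRRC51. IL11 shared BRSK1, IL17B ARHGEF37, IL17D CRYL1, IL27 CLN3, IL34 SNORD111 and IL1RL2 IL1R2. IL12A, IL21R and IL10, which had the largest ratios in GM12878, and IL27RA, which had the largest in mESCs, had no shared target by symbol. In GM12878 IL10 reached a fragment that overlaps FCAMR but was not counted as its target (10 reads, score 5.05, 191 kb). The only Il10 call in mESCs ended at Fcamr (9 reads, score 6.29, 219 kb). The IL21R match of KDM8 and Jmjd5 also lay outside this count, and both matches were seen after the values were known.

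Calls in the other direction, from the bait of another gene to a fragment named for an interleukin gene, tell how often an interleukin promoter was the contacted end. The genes reached by 5 or more such calls in mESCs were Il27ra (30), Il6ra (12), Il12rb1 and Il5 (9 each), Il17rc (7), Il18bp (6), and Il11 and Il13 (5 each). In GM12878 they were IL2RB (8), IL26 (7), IL17RE (6) and IL3 (5). The IL2RB and IL17RE counts each sum 2 baited fragments. Over all calls 36.3% in mESCs and 29.4% in GM12878 reached a baited fragment. The share of all named genes reached this often was not computed, so these counts do not set the interleukin genes apart.

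Conventional Hi-C of mESCs covered few of the interleukin contacts. For 7 of the 309 mESC calls shorter than 1 Mb, both fragments fell in bins of 25 kb that Hi-C linked at a false discovery rate under 0.05 (2.27%, 1.1 to 4.6%), beside 11.6% of all 97826 such calls. Of these 7, 5 were Il27ra calls that fell in the same bin pair over the Zswim4 and Mir23a region, with 30 Hi-C reads. The others were 1 call each of Il12rb1 (42 Hi-C reads) and Il17c (78 Hi-C reads). None of the 49 Il6ra calls lay in such a bin pair.

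Partner genes of the same pathways, a list of 45 other cytokines, receptor chains, Janus kinases, STATs, adaptors and regulators, were read in the same way. GM12878 named 37 of them, and 33 had a call (89.2%), with a median of 4 calls per gene. In mESCs 28 of 29 had a call (96.6%), with a median of 3. Over all named genes the shares were 93.0% and 94.8% and the median was 3 in each list, so the list lay near them. STAT6, which transmits the IL-4 signal, had the most in GM12878 with 50 calls, followed by the B cell transcription factor gene IRF4 with 45, IRAK2 with 26, JAK2 with 18 and TYK2 with 14. In mESCs these 5 genes had 3, 7, 8, 4 and 4 calls. The genes with the most in mESCs were Stat5a with 18, Osmr with 14, Sigirr with 13, and Cish and Osm with 10 each, and they had 1, 1, 2, 3 and 2 calls in GM12878. Of 26 matched genes of the list, 9 were higher in GM12878 (34.6%, beside 27.2%) and 8 in mESCs (30.8%, beside 29.3%).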

How the data were processed

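Promoter CHi-C was made from 3 GM12878 and 2 mESC biological replicates, and Hi-C from 1 mESC library. The authors aligned reads to hg19 or mm9 (Bowtie 1.1.0 and HOMER 4.7 per the submitters' processing notes) and called contacts with CHiCAGO on all replicates of a cell type jointly. The deposited lists give, per call, a weighted mean of reads, rounded to whole numbers and so not a raw count, and the CHiCAGO score. A second deposited list gives the pairs and the score for a genome browser. The deposited Hi-C table gives HOMER read counts and p-values with false discovery rates for 25-kb bin pairs. The lists do not hold the depth per library, which the study gives and which was not used here, and its effect on numbers of calls was not tested.

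Gene symbols were read from bait names without transcript suffixes. Calls were counted per gene and bait, distances were taken between midpoints, and other ends were annotated with GENCODE. Fragments lying within 10 kb of each other formed a run, and baits within 500 kb a cluster. Calls reached Hi-C bins when both midpoints lay in them. Wilson intervals (95%) cover counting error only. Python 3.11.15 with pandas 2.3.3, NumPy 2.4.6 and SciPy 1.17.1 was used, and counting was tested on simulated lists. The genes named were the 10 with the most calls per cell type, those of the 5 highest scores, of calls between interleukin genes, of the 8 largest matched ratios in each direction and of the longest call; others are named where a shared target or neighbour turned on them. The members and lists were chosen with earlier results of these data known. The Hi-C table at 1 Mb was not used.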

Additional observations from a re-analysis of the deposited data

How the results depend on the processing

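Of 55 alternative values, 35 stayed within 1.5 times a count or within the interval of a share or median. A score of at least 10 left 48 calls of 26 genes in GM12878 and 27 calls of 11 genes in mESCs. At this score 35.4% and 33.3% of calls reached a baited fragment, beside 44.7% and 47.7% of all calls at that score, the median distances were 64.2 and 91.1 kb, and 2 and 0 calls joined interleukin genes. It also left 12 matched genes higher in GM12878 and 7 in mESCs, with no share over all matched genes computed, and 0 shared targets. The Hi-C share was 7.41% of the 27 mESC calls, beside 28.5% of all calls at that score. The interleukin calls behind this share were all from Il27ra and fell in the same bin pair. Leaving out baits that also name other genes gave 20.2% of GM12878 calls on baited fragments and 7 shared targets. It left 21 of the 41 matched genes, of which 10 were higher in GM12878 (47.6%) and 4 in mESCs (19%). The shares over all matched genes on such baits were not computed, and the cause of the changed balance was not tested. A limit of 3 times left 9 genes higher in GM12878 and 7 in mESCs, and the shares over all matched genes at this limit were not computed. Targets named by bait symbol alone gave 7 shared targets. Every listed Hi-C bin pair gave 22.3%, beside 29.9% of all calls. Matching through older symbols and Hi-C bins taken from bin names were chosen after seeing the data, and changed no count by more than 1.5 times. No paired analysis was possible because the replicates of a cell type were called together, and for the same reason no replicate could be left out.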
